A study of Mus musculus with 32 samples.

Results

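ATAC-seq maps accessible chromatin through a transposase that cuts open DNA and tags it for sequencing. Open sites were compared between mouse cells that were reprogrammed with CTCF overexpression plus Smarca5 shRNA and their overexpression control, both at day 10. Each group of 2 samples had 1 deposited list of peaks. Intervals that overlapped within a list were merged, which left 66321 peaks in the double treatment and 72414 in the control. A control peak with no overlap in the double treatment list was called lost, a double treatment peak with no overlap in the control list was called gained, and an overlap of at least 1 bp made a peak shared. The pair used 4 of the 32 samples, and its lists covered 79301 of the 276187 sites found in any of the 15 lists of the series.

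All cells were OG2 mouse embryonic fibroblasts at passage 2, which carry a green fluorescent reporter of Oct4. They were infected with retroviruses for Oct4, Sox2, Klf4 and c-Myc (OSKM) made in Plat-E packaging cells, and were grown in stem cell medium with vitamin C. The double treatment added retroviral pMXs-CTCF and an shRNA against Smarca5. A day 10 group with CTCF overexpression alone stood between them, with 67561 peaks, and the control was labelled as an overexpression control. The sources used here give neither the empty vector or shRNA of the control nor the sex and age of the embryos. The cells were not sorted at day 10. A lost or gained peak can therefore come from fewer or more cells of a type as well as from a difference within cells, and these cannot be told apart.

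CTCF is a zinc finger protein that binds insulators and, with cohesin, anchors chromatin loops. Smarca5, also called SNF2H, is the ATPase of ISWI complexes, which slide nucleosomes into evenly spaced arrays. In mouse embryonic stem cells, CTCF occupancy and the nucleosome arrays beside CTCF sites are known to need Smarca5. During reprogramming, fibroblast enhancers close while sites used by pluripotent cells open.

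The bases below are RefSeq promoters of GRCm38.p6, from 250 bases before to 50 after a transcription start, and are shown because they include places where the lists differed. Capitals mark the letters GGGNGGG (KLF), ACAANG (SOX), GGAATG (TEAD) or CCANNAGNNGGC (CTCF core) on either strand. The first 4 overlapped a peak in the control list and none in the double treatment list, and the last overlapped a peak in the double treatment list and none in the control list.
Nanog, chr6:122707315-122707614, plus strand: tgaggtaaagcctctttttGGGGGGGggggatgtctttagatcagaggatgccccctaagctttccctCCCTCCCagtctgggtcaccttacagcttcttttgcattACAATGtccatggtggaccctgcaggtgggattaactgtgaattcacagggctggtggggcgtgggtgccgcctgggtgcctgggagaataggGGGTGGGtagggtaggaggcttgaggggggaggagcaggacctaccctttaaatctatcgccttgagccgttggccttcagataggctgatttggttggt
Sox2, chr3:34649745-34650044, plus strand: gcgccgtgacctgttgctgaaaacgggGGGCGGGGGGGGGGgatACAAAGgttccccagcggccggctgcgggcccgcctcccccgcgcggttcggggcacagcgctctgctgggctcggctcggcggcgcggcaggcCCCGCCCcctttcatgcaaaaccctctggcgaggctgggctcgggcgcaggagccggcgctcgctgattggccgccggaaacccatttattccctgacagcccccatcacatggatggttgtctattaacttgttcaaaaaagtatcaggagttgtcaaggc
Crb3, chr17:57061981-57062280, plus strand: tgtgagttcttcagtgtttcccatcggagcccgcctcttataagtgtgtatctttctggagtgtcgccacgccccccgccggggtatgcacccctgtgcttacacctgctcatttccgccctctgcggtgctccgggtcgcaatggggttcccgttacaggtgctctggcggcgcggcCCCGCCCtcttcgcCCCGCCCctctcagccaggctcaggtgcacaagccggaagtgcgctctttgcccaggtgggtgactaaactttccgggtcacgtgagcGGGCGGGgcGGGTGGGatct
Grik3, chr4:125490446-125490745, plus strand: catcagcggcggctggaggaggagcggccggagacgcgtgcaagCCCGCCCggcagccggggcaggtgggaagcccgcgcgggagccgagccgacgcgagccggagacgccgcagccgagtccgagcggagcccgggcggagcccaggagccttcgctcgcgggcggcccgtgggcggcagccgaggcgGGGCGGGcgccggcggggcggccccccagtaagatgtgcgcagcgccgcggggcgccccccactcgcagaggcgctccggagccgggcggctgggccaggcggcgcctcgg
Gata1, chrX:7967861-7968160, minus strand: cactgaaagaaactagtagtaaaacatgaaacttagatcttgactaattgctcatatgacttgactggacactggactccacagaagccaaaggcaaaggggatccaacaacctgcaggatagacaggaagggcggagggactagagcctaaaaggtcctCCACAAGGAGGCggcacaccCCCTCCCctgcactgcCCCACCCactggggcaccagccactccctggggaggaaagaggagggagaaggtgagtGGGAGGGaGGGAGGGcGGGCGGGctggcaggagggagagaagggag
Nanog and Sox2 encode core factors of pluripotency, Crb3 an apical polarity protein of epithelia, Grik3 a kainate receptor subunit and Gata1 an erythroid transcription factor. With CTCF overexpression alone, all 5 promoters held a peak. The Nanog and Gata1 promoters held 4 CpG pairs each, against 27 at Sox2, 24 at Crb3 and 50 at Grik3.

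The double treatment lost more sites than it gained. It lost 12980 control peaks, which was 17.9% of the control list (95% interval 17.6% to 18.2%), and gained 6887 peaks, 10.4% of its own list (10.2% to 10.6%). There were 1.88 lost sites for each gained site. The log2 ratio of peak number, double treatment over control, was -0.13. The intervals here and below are of the exact Clopper-Pearson kind and reflect the number of peaks counted, not the spread between cultures. With 1 list per group there was no replicate check and no test, and the sequencing depth behind the lists is unknown.

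Lost sites were spread over all autosomes, from 15.5% of control peaks on chromosome 17 to 19.9% on chromosome 5. The X chromosome lost 21.3% of its 1711 control peaks, more than any autosome. Gained sites made up 9.31% of double treatment peaks on chromosome 7 and 11.3% on chromosomes 1 and 13, the lowest and highest autosomes, and 10.2% on the X chromosome. The Y chromosome had 8 peaks in both lists and lost none.

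**Figure D1:**
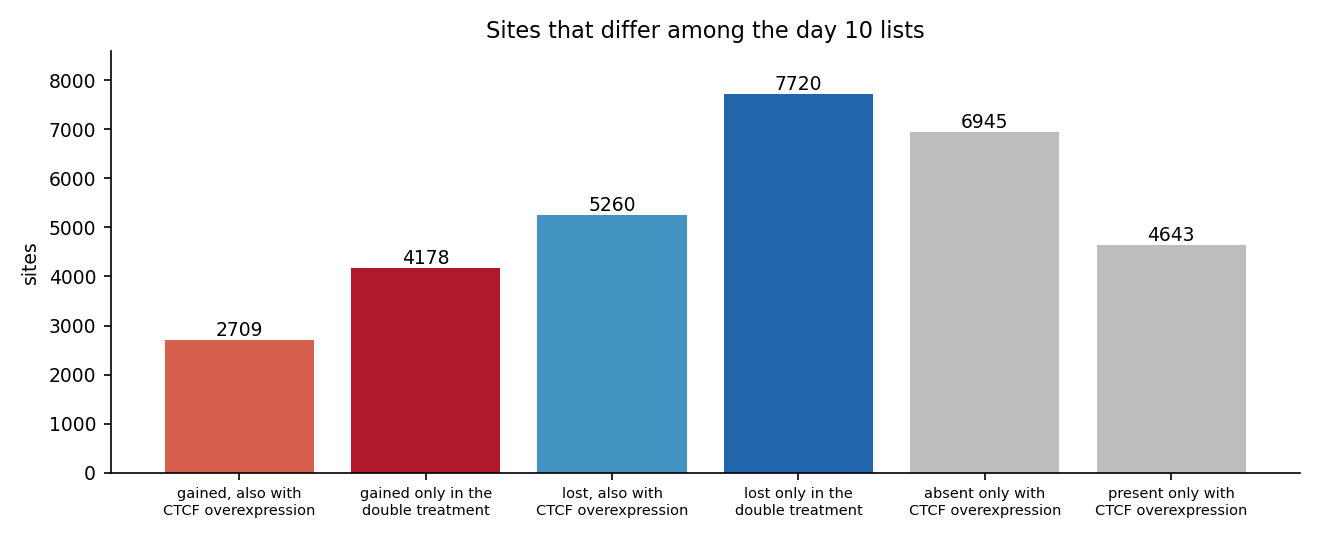
Number of sites in each pattern of presence over the 3 day 10 lists, leaving out the 52489 sites present in all 3. Red and blue bars split the gained and lost sites by whether the list of CTCF overexpression alone had the same state, and grey bars are sites where that list alone differed from the other two. The tallest bar is the 7720 sites lost in the double treatment but present with CTCF overexpression alone.

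Most lost sites were still present when CTCF was overexpressed without the Smarca5 shRNA. The list of CTCF overexpression alone held 7720 of the 12980 lost sites, 59.5% (58.6% to 60.3%), and 5260 were absent there too. It held 2709 of the 6887 gained sites, 39.3% (38.2% to 40.5%), and 4178 were gained with the double treatment but not with CTCF alone. Of the shared sites it held 88.3%. Set beside the same control, CTCF overexpression alone lost 12205 sites and gained 7352. The reverse reading was similar. The double treatment list held 6945 of those 12205 lost sites and lacked 4643 of those 7352 gained sites. Most changes of either list against the control were thus absent from the other list. Whether the 59.5% is particular to the Smarca5 shRNA was not tested. Since both comparisons use the same control list, an error in that list enters both. The double treatment set directly against CTCF overexpression alone lacked 12363 sites and had 11123 that CTCF alone lacked, a near balance of 1.11 to 1.

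Lost and gained sites were mostly away from the ends of genes. Peaks within 1 kb of either end of a protein-coding gene made up 7.96% of lost sites (7.50% to 8.44%), 5.71% of gained sites (5.17% to 6.28%) and 24.0% of shared sites. Gained sites lay more often inside gene bodies, 52.7% against 43.4% of lost and 41.3% of shared sites. Lost sites lay more often between genes, 48.6% against 41.6% of gained and 34.7% of shared sites. Lost sites were at a median of 22.1 kb from the nearest gene end, gained sites at 25.8 kb and shared sites at 11.9 kb.

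Changed sites were also rarer across the rest of the series. A lost site was found in a median of 7 of the 12 lists outside the day 10 set, a gained site in 6 and a shared site in 10. Of gained sites 22.8% were in none of those 12 lists, against 14.8% of lost and 4.53% of shared sites. All 12 lists held 36.1% of shared sites, 4.54% of lost sites and 1.02% of gained sites. Peaks that a caller finds in fewer lists can be weaker peaks, and since the deposited scores were 0 throughout, the part of peak strength in these shares was not tested.

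Lost and gained sites differed most in how often they were open in GFP+ cells. The series holds lists from control shRNA cells at day 0 and from sorted Thy1+, SSEA1-Thy1-, SSEA1+ and GFP+ cells, in the order in which cells lose the fibroblast marker Thy1, gain the early marker SSEA1 and switch on the Oct4 reporter. The list of GFP+ cells held 66.3% of lost sites (65.4% to 67.1%) and 27.0% of gained sites (26.0% to 28.1%). Among sites lost with the double treatment but present with CTCF alone, 79.2% were in the GFP+ list, and among lost sites that CTCF alone also lacked, 47.3%. Among sites gained with the double treatment but not with CTCF alone, 19.2% were, and among gained sites that CTCF alone also held, 39.1%. Presence with CTCF alone thus went with a higher GFP+ share in both classes. Of shared sites, not split in this way, 71.6% were in the GFP+ list.

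Earlier populations separated lost from gained sites less. In the Thy1+ list 63.8% of lost and 65.6% of gained sites were present, in the SSEA1-Thy1- list 62.1% and 61.0%, and in the SSEA1+ list 61.5% and 52.5%. In the day 0 list 45.5% of lost and 37.8% of gained sites were present. Shared sites were present at 66.7%, 89.3%, 88.9%, 85.3% and 71.6% from day 0 to GFP+ cells. Only 0.664% of the double treatment's intervals and 0.689% of the control's had the same position as an interval of the day 0 list, so levels of these shares depend on overlap across sets made separately, while classes of sites can be set side by side. The sorted cells may also come from another OSKM system, since the labels describe an inducible lentiviral one as well.

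**Figure D2:**
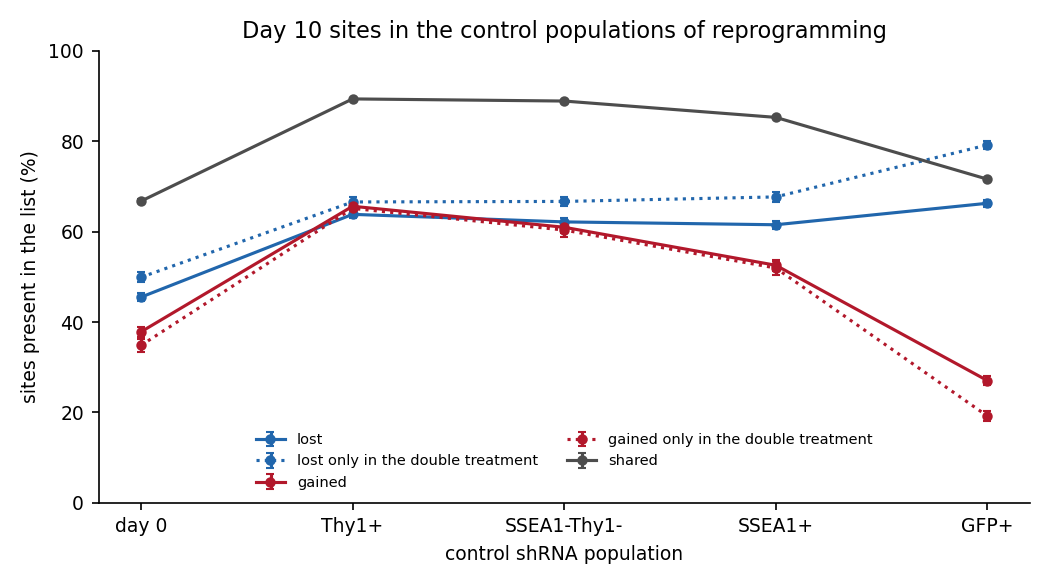
Share of day 10 sites present in the control shRNA list of each population, in percent, with exact 95% intervals as bars. Solid lines are all lost (blue), all gained (red) and shared (grey) sites, and dotted lines are the lost and gained sites for which CTCF overexpression alone had the state of the control. Lost and gained sites are close from Thy1+ to SSEA1-Thy1- cells and part at GFP+ cells, 66.3% against 27.0%.

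Combinations of the day 0 and GFP+ lists gave the same order. Of lost sites 35.3% were in both lists, 30.9% in the GFP+ list alone, 10.2% in the day 0 list alone and 23.6% in neither. Of gained sites 12.9% were in both, 14.1% in the GFP+ list alone, 24.9% in the day 0 list alone and 48.0% in neither. For shared sites the values in the same order were 53.4%, 18.2%, 13.3% and 15.1%. The most frequent pattern of lost sites over the 5 populations was presence in all 5, with 3715 sites or 28.6%. That was below the 50.5% of shared sites and the 46.5% of all control peaks with this pattern. Gained sites were most often in none of the 5, with 1664 sites or 24.2%, and next in the Thy1+, SSEA1-Thy1- and SSEA1+ cells without day 0 and GFP+ cells, with 1142 sites or 16.6%. That last pattern is of sites open in intermediates. Of all double treatment peaks 7.25% were in none of the 5, and 8.84% had the pattern of intermediates.

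Read the other way, the double treatment held fewer of the sites that open on the way to GFP+ cells. Opening sites, defined as GFP+ control peaks absent at day 0, numbered 41521. The double treatment list held 28.4% of them (28.0% to 28.9%), CTCF overexpression alone 35.0% (34.6% to 35.5%) and the control 35.8% (35.3% to 36.2%). Stable sites, present at day 0 and in GFP+ cells, were held at 65.7%, 71.6% and 73.1%. Closing sites, present at day 0 and absent from GFP+ cells, numbered 104146, and the lists held 9.28% (9.11% to 9.46%), 7.13% (6.97% to 7.29%) and 8.91% (8.74% to 9.08%). The double treatment list was thus the shortest of the 3 day 10 lists and yet held the most closing sites.

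**Figure D3:**
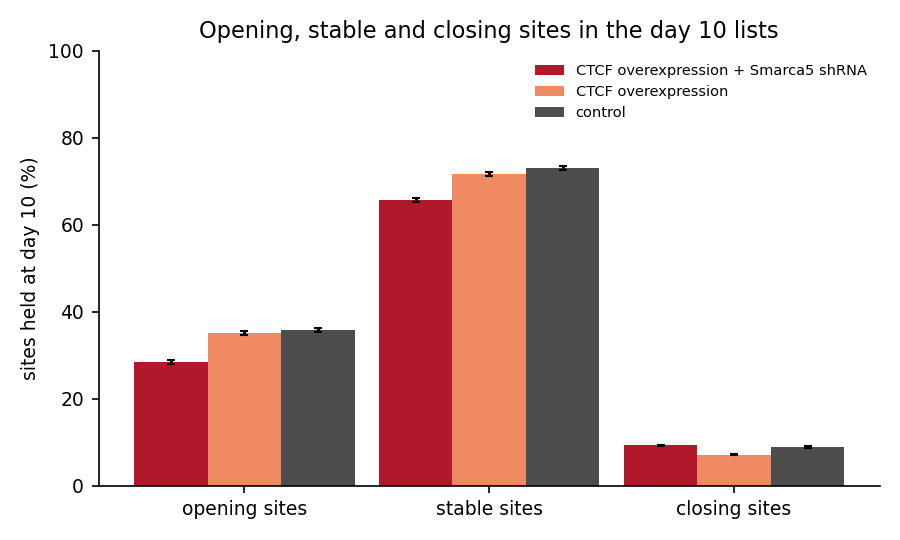
Share of opening, stable and closing sites that each day 10 list held, in percent, with exact 95% intervals as bars. The double treatment (red) holds 28.4% of opening sites, below CTCF overexpression alone (orange, 35.0%) and the control (grey, 35.8%), and 9.28% of closing sites, above 7.13% and 8.91%.

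A further Smarca5 shRNA experiment in the series shares no samples with the day 10 lists. It compared unsorted cells at day 12 with a control shRNA. That control list held 2075 of the sites lost at day 10, and 327 of these, 15.8% (14.2% to 17.4%), were missing with Smarca5 shRNA at day 12. Of the 733 gained sites it held, 60 or 8.19% (6.30% to 10.4%) were missing, and of 30202 shared sites 649 or 2.15% (1.99% to 2.32%). Over all 43618 sites of the day 12 control list 5.40% were missing. The share was 16.2% (13.3% to 19.5%) where CTCF overexpression alone had also lost the site and 15.6% (13.8% to 17.5%) where it had kept it. Among gained sites that the day 12 control lacked, 1.69% appeared with Smarca5 shRNA, against 1.85% of lost and 4.01% of shared sites. Sites that vary in any pair may be weaker peaks, and this was not tested.

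The 5 CTCF shRNA pairs gave no single order of lost and gained sites. At day 0, 7.48% of lost sites and 7.87% of gained sites in the control list were missing with CTCF shRNA, against 3.27% of shared sites. In Thy1+ cells 3.57% of lost, 4.25% of gained and 1.03% of shared sites were missing, and in the SSEA1-Thy1- pair 6.68%, 6.91% and 2.15%. The SSEA1+ pair lacked more lost than gained sites, 8.19% (7.60% to 8.81%) against 5.42% (4.70% to 6.20%), beside 1.64% of shared sites. In GFP+ cells the order was the opposite. There 8.01% of lost (7.45% to 8.60%), 21.5% of gained (19.6% to 23.4%) and 5.19% of shared sites were missing, beside 14.3% of all sites of that control list. For the other pairs the share over all sites of the control list was 4.45% at day 0 and 8.20% in Thy1+ cells. It was 8.74% in SSEA1-Thy1- and 7.99% in SSEA1+ cells. Lost and gained sites were thus below the share of all sites in Thy1+ and SSEA1-Thy1- cells.

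The overexpressed gene itself carried new peaks. At Ctcf the double treatment list had 5 peaks in the gene or within 10 kb, CTCF overexpression alone 4 and the control 2. The gained peaks were 3 inside the gene, at chr8:105664080-105664479, chr8:105675872-105676271 and chr8:105679961-105680360 on GRCm38. CTCF overexpression alone held the last 2 of these. None of the 3 was present in any of the 13 lists made without CTCF overexpression, while the other two peaks near the gene were in all 13. The introduced pMXs-CTCF DNA carries CTCF coding sequence, and whether these peaks came from it was not tested. An shRNA acts on the transcript, so peaks at Smarca5 are no check of the knockdown. Smarca5 had 2 peaks with the double treatment, 3 with CTCF alone and 3 in the control, and its gene-end peak was in all 3 lists. Its lost peak lay inside the gene and was present in all 5 control populations.

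Pluripotency genes lost sites at several loci and kept others. Pou5f1, which encodes Oct4, had 6 peaks with the double treatment, 7 with CTCF alone and 6 in the control. Klf4 had 2, Thy1 2 and Fut4, the enzyme behind the SSEA1 antigen, 1 in each of the 3 lists. Sox2 had 3 peaks with the double treatment, against 4 with CTCF alone and 4 in the control, and the missing peak lay on the promoter shown above. Another peak within 1 kb of an end of Sox2 was in the double treatment list. Myc had 6 peaks with the double treatment, 5 with CTCF alone and 6 in the control. At Nanog the lost peak was the gene-end peak over the promoter shown above, present with CTCF alone, in SSEA1+ and in GFP+ cells, and absent at day 0. Esrrb, an orphan nuclear receptor of naive pluripotency, had 6 peaks with the double treatment, 12 with CTCF alone and 10 in the control, and 19 in GFP+ cells. Within 50 kb of Esrrb 6 sites were lost and none gained.

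Beside all protein-coding genes, the pluripotency list did not stand apart in the share of lost sites. Within 50 kb of its 30 genes there were 216 peaks with the double treatment, 251 with CTCF alone and 248 in the control, a log2 ratio of -0.20 for the double treatment over the control (-0.47 to 0.07). It lost 19.0% of its control peaks. Over all protein-coding genes the same ratio was -0.11, from 57446 peaks with the double treatment, 59367 with CTCF alone and 62188 in the control, and 16.7% were lost. Fibroblast genes had 208 peaks with the double treatment, 214 with CTCF alone and 232 in the control, and epithelial genes 208, 222 and 220. AP-1 and partner factors, which drive fibroblast enhancers, had 265, 284 and 270.

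Genes of other remodellers had about as many peaks as in the control, and housekeeping and CTCF and cohesin genes fell about as all genes did. The log2 ratio was -0.14 for housekeeping and -0.087 for CTCF and cohesin genes, beside -0.11 for all protein-coding genes. CTCF and cohesin genes had 145 peaks with the double treatment, 143 with CTCF alone and 154 in the control, and ISWI remodeller genes 110, 115 and 114. Genes of other remodellers had 297, 319 and 296, and cell cycle arrest genes 145, 148 and 147. Housekeeping genes had 197, 217 and 217. Markers of cell types that a fibroblast culture could also hold lost between 12.9% of control peaks near haematopoietic markers and 23.6% near muscle and adipocyte markers. Over all protein-coding genes 16.7% were lost. The intervals of the log2 ratio of all 16 lists included 0.

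Few genes lost a peak at an end. Of 14149 genes with a gene-end peak in the control, 552 lost it, a share of 3.9%, and of 7738 genes without, 143 gained it, a share of 1.85%. Among the list genes, 14 lost and 4 gained a gene-end peak. Gata1, whose promoter shown above gained a peak, was not among these list genes. With gene ends taken as 2.5 kb wide, 9 of these 18 no longer differed, Nanog, Prdm14, Dppa5a, Gdf3, Crb3, Dsg3, Eng, Des and Myh3. Either end of a gene counted, so these are not all promoters. At RefSeq starts 385 genes lost a peak and 97 gained one, and of the 18 list genes 6 still differed, Eng, Myh3 and Rab25 did not, and 9 were not covered. The pluripotency genes that lost it were Nanog, Prdm14, which encodes a repressor of DNA methylation genes, and Dppa5a, a marker of naive stem cells. Gdf3, a TGF-beta family ligand of stem cells, gained it, also with CTCF alone, at a position absent from all 5 control populations. Dppa5a lost its gene-end peak but had 2 gained peaks further out, both present in GFP+ cells.

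Epithelial genes gave both directions. Crb3 and Krt19, a keratin of simple epithelia, lost their gene-end peak, and Rab25, a small GTPase of epithelial recycling endosomes, gained it, though not at its RefSeq start. Smarca1, which encodes the other ISWI ATPase, lost its gene-end peak, which CTCF alone kept and all 5 control populations held. Ywhaz was the housekeeping gene on the list of losses. Eng and Esam of endothelium, Dcx of young neurons, Hand1 of trophoblast and heart, and Myog, Des and Myh3 of muscle also lost theirs. Dsg3 of keratinocytes and Lpl of adipocytes gained theirs. CTCF overexpression alone kept the gene-end peak of Nanog, Dppa5a, Crb3, Smarca1, Eng, Esam, Dcx and Des, and also lacked that of Prdm14, Krt19, Ywhaz, Hand1, Myog and Myh3.

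Promoters that lost a peak were poor in CpG beside promoters that kept theirs. RefSeq gave 32851 promoters of 27025 genes, 17492 of them protein-coding, and 588 promoters overlapped a lost peak without another, 144 a gained peak and 13328 a peak in both lists. A ratio of observed to expected CpG over 0.6 was found in 27.4% of lost promoters (23.8% to 31.2%), 12.5% of gained (7.58% to 19.0%), 74.4% of kept and 35.8% of all promoters. Of the lost promoters printed above, Sox2, Crb3 and Grik3 had ratios of 0.82, 0.77 and 1.01, and Nanog had 0.18. Median GC content was 56.0% in lost, 53.0% in gained and 62.3% in kept promoters.

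Short sequence matches differed between the classes for some letters and not for others. The CTCF core CCANNAGNNGGC, searched on both strands, was in 3.06% of lost, 3.47% of gained, 3.26% of kept and 2.43% of all promoters. The AP-1 letters TGANTCA were in 8.33% of lost (6.23% to 10.9%), 13.9% of gained (8.69% to 20.6%), 5.08% of kept (4.71% to 5.47%) and 7.81% of all promoters. The octamer ATGCAAAT, bound by Oct4, was in 2.89% of lost (1.69% to 4.59%), 1.39% of gained, 1.55% of kept and 1.74% of all promoters. The KLF letters GGGNGGG were in 60.9% of lost (56.8% to 64.9%), 53.5% of gained (45.0% to 61.8%), 70.7% of kept (69.9% to 71.5%) and 48.1% of all promoters, and the SOX letters ACAANG in 37.1%, 41.7%, 31.6% and 41.2%. GGAATG of TEAD factors was in 14.6% of lost, 10.4% of gained, 11.5% of kept and 14.7% of all promoters, and TGTGGT of RUNX factors in 13.4%, 19.4% (13.3% to 26.9%), 11.8% (11.2% to 12.3%) and 16.8%. AP-1 and SOX letters were thus more frequent, and KLF letters rarer, in lost and gained than in kept promoters, and RUNX letters were more frequent in gained than in kept ones, while the intervals of the CTCF core overlapped. Kept promoters were also richer in CpG, whose part in these shares was not tested. A match is a description of letters and not a bound site. The Gata1 promoter above holds a CTCF core 90 bases before its start.

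Gene by gene, more genes had fewer sites. Of 17682 protein-coding genes with a peak in the gene or within 10 kb in either list, 5316 had fewer peaks with the double treatment, a share of 30.1%, and 2511 had more, a share of 14.2%. The greatest shortfall was at 3 gene models that span the protocadherin clusters, Gm37013, Gm38666 and Gm38667, which overlap and share the same 24 peaks with the double treatment, 37 with CTCF alone and 46 in the control. Pcdhga2, in the same locus, had 14 peaks with the double treatment, 18 with CTCF alone and 23 in the control.

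Outside that locus the greatest shortfalls were at Camta1, Shank2, Anks1b, St6galnac3 and Nrxn3. Camta1, a calmodulin-binding transcription activator, had 21 peaks with the double treatment, 32 with CTCF alone and 32 in the control. Shank2, a scaffold of excitatory synapses, had 8 with the double treatment, 16 with CTCF alone and 18 in the control. Anks1b, a postsynaptic protein, had 9, 17 and 18 in the same order, and the sialyltransferase gene St6galnac3 had 13, 21 and 22. At these 4 genes CTCF overexpression alone was within 2 peaks of the control. Nrxn3, a presynaptic adhesion gene with the same shortfall as Anks1b, differed from them, with 22 peaks with the double treatment, 22 with CTCF alone and 31 in the control. Long genes hold more peaks and so can differ by more of them, and both directions drew on long genes.

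The genes with the greatest excess were also mostly long. Cux1, a homeobox transcription factor, had 22 peaks with the double treatment, 17 with CTCF alone and 15 in the control. Tenm4, a teneurin cell adhesion gene, had 37, 36 and 30 in the same order. Myt1l, a neuronal transcription factor that represses non-neuronal genes, had 13 with the double treatment, 7 with CTCF alone and 7 in the control. Arhgap10 and Fars2, a mitochondrial tRNA synthetase, each had 19, 13 and 13. Gas7, a cytoskeletal protein gene, had 20, 10 and 14, and Maml3, a Notch coactivator, 26, 22 and 20. Of the 7 gained sites within 50 kb of Cux1 none was in the GFP+ list, and of 8 at Myt1l 1 was, beside 27.0% of all gained sites.

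The lost sites were thinly spread. Of windows of 100 kb with any lost site, 6304 held 1, and the 3 fullest held 8 each. These windows held Lhx5, a LIM homeobox gene of the forebrain, Pax7, a paired box gene of muscle stem cells and neural crest, and Uncx, a homeobox gene of the vertebral column. At chr5:120400001-120500000, with Lhx5, there were 2 peaks with the double treatment, 13 with CTCF alone and 10 in the control. At chr4:139800001-139900000, with Pax7, there were 5, 10 and 11 in the same order, and at chr5:139500001-139600000, with Uncx, 3, 8 and 11. The 5 control populations from day 0 to GFP+ cells held between 6 and 15 peaks in each of these 3 windows. The day 12 control list, shorter at 43618 peaks, held 5 at Lhx5, 4 at Pax7 and 2 at Uncx. All 7 sites lost within 50 kb of Lhx5 were present with CTCF alone, 9 of 10 at Pax7 and 5 of 7 at Uncx. Over all lost sites the share was 59.5%.

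The next windows held 7 lost sites each. One was at Firre on the X chromosome, chrX:50600001-50700000, with 3 peaks with the double treatment, 9 with CTCF alone and 10 in the control. Firre is a long noncoding RNA gene whose repeats bind CTCF and which forms long-range contacts on the inactive X chromosome. Over the gene itself there were 4 peaks with the double treatment, 13 with CTCF alone and 11 in the control. The day 12 control list also had 4 there. Of the 7 lost sites at Firre 6 were in the day 0 list and 6 in the GFP+ list. Over all lost sites these shares were 45.5% and 66.3%. The other window was chr7:143400001-143500000, with Kcnq1 and Cdkn1c, a maternally expressed pair in an imprinted domain, and had 5 peaks with the double treatment, 12 with CTCF alone and 12 in the control.

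The windows with the most gained sites were less uniform. The fullest, at Sfi1 on chr11:3100001-3200000, gained 7 sites and was dense in every list shown, with 35 peaks with the double treatment, 32 with CTCF alone, 29 in the control and 20 at day 0. The next gained 5 sites each. At Myt1l, chr12:29800001-29900000, there were 7 peaks with the double treatment, 3 with CTCF alone and 2 in the control. A window on chr13:104500001-104600000 had 9, 7 and 6 in the same order, and the window of Emp1 and Pbp2, chr6:135300001-135400000, had 14, 12 and 10. With Gm and Rik gene models left out, no protein-coding gene was listed in the window on chromosome 13.

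**Figure D4:**
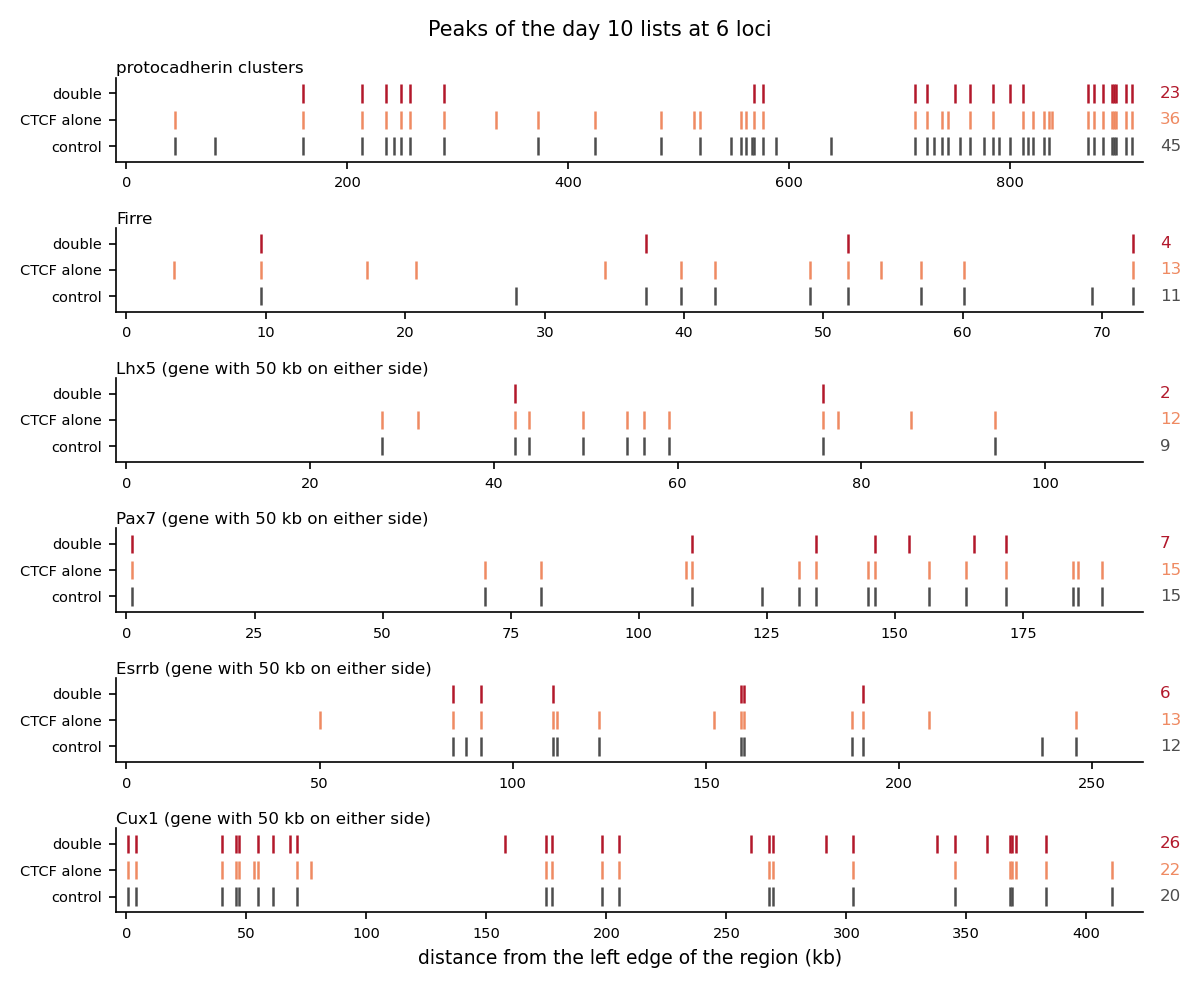
Peak positions of the double treatment (red), CTCF overexpression alone (orange) and the control (grey) at 6 loci, in kb from the left edge of each region, with the number of peaks at the right. The double treatment row is the sparsest in the protocadherin clusters, Firre, Lhx5, Pax7 and Esrrb, with 23, 4, 2, 7 and 6 peaks, and the fullest at Cux1, with 26.

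Gene families were chosen by symbol after these values were seen. Protocadherins, homeobox and synaptic genes were chosen because their loci were among those above, so their shares describe them and test nothing, and the intervals cover counting error only. The clustered protocadherins, cell adhesion genes whose promoters bind CTCF and are chosen through CTCF loops in neurons, had 22 peaks within 10 kb with the double treatment, 35 with CTCF alone and 43 in the control. They lost 51.2% of control peaks (35.5% to 66.7%), against 17.9% of all control peaks. Of the 57 genes, 50 had fewer peaks, 3 had as many, none had more and 4 had no peak in either list. These genes are neighbours that share peaks, so they are not separate observations. Of the 22 lost sites, 20 or 90.9% were in the GFP+ list, against 66.3% of all lost sites. CTCF alone held 12 or 54.5%, close to the 59.5% of all lost sites. GFP+ cells had 87 peaks near these genes, more than any day 10 list, and the day 12 control list had 19.

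Homeobox and Pax genes outside the Hox clusters, which set body regions and neural fates, had fewer peaks with the double treatment. With CTCF alone their number was close to that of the control. Near 104 genes there were 375 peaks with the double treatment, 483 with CTCF alone and 476 in the control, and 24.6% of control peaks were lost (20.8% to 28.7%). CTCF alone held 98 of the 117 lost sites, 83.8%, against 59.5% of all lost sites. It also held 13 of the 16 gained sites, 81.25%, against 39.3% of all gained sites. Fewer peaks were found at 60 genes and more at 6, beside 30.1% and 14.2% of all genes with a peak. Lmx1b, which patterns the dorsal limb, had 10 peaks with the double treatment, 17 with CTCF alone and 18 in the control. Pax6, a regulator of eye and cortex, had 8, 11 and 11 in the same order, Dlx5 1, 4 and 4, Msx1 2, 5 and 5, and Evx2 2, 5 and 5. Hmx2 and Hmx3 went the other way, with 6 and 5 peaks with the double treatment against 4 and 3 in the control. Of the 94 genes of this family with a gene-end peak in the control, 11 lost it, beside 3.9% of all such genes, and none gained one.

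Hox genes lost 13.5% of control peaks (7.17% to 22.4%), an interval that overlaps that of the other homeobox genes, with 81 peaks with the double treatment, 86 with CTCF alone and 89 in the control. Within 50 kb the shares were 19.4% for Hox genes and 26.4% for the others. Genes of synaptic and axonal adhesion and receptors lost 30.0% (26.0% to 34.1%), with 399 peaks with the double treatment, 443 with CTCF alone and 514 in the control. Among them Grik3 had no peak within 10 kb with the double treatment, against 12 with CTCF alone and 7 in the control. Olfactory receptor genes, of which 966 of 1110 had no peak, lost 41.0% of 139 control peaks. CTCF alone held 35.1% of those sites, against 59.5% of all lost sites. Potassium channel and channel subunit genes lost 21.7%, keratins 20.4%, collagens 19.5% and forkhead genes 19.2%. Wnt ligands lost 12.9%, T-box genes 11.5%, Zfp genes 11.5%, Sox genes 11.1% and ribosomal protein genes 7.01%, with 15 of 214 control peaks.

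**Figure D5:**
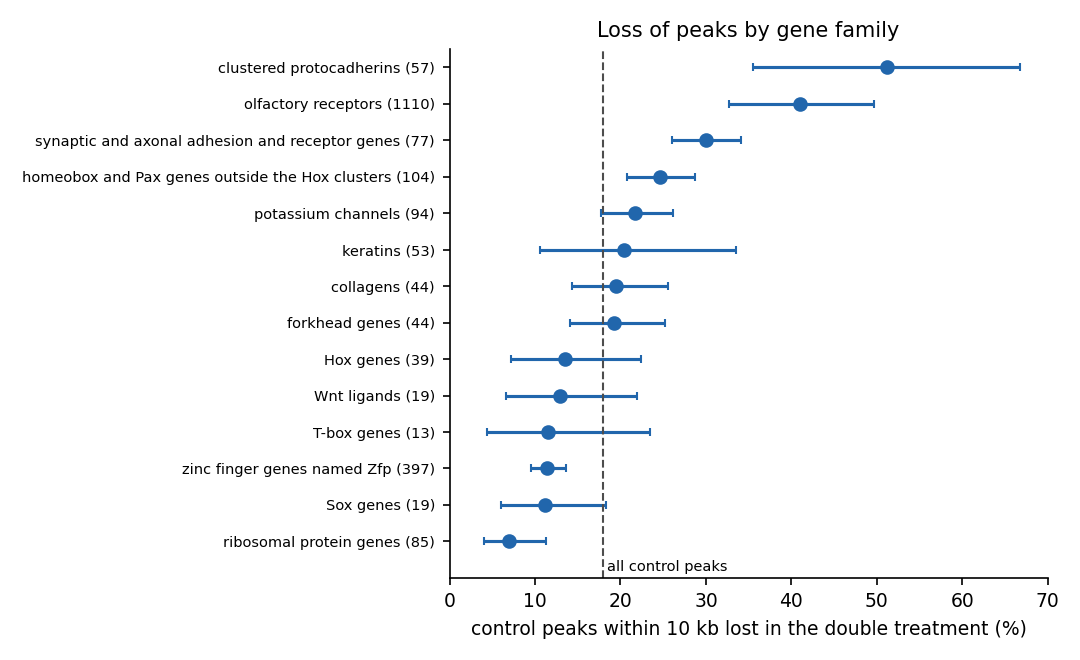
Share of control peaks within 10 kb of the genes of each family that the double treatment lost, in percent, with exact 95% intervals as bars, the number of genes in parentheses and the share over all control peaks, 17.9%, as a dashed line. Clustered protocadherins, at 51.2%, have the highest share and ribosomal protein genes, at 7.01%, the lowest. Families were chosen after their loci were seen.

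Genes of microRNAs also lost more sites than they gained, as peaks and gene ends did in general. A peak lay within 1 kb of 204 of 961 hairpins with the double treatment, 226 with CTCF alone and 226 in the control. Of the 226 in the control, 27 lost theirs, a share of 11.9%, and of the other 735 hairpins 5 gained a peak, a share of 0.68%, beside 17.9% of all control peaks lost and 10.4% of all double treatment peaks gained, and 3.9% and 1.85% at gene ends. The GFP+ list held a peak at 22 of the 27. It held 66.3% of all lost sites, which is a share of sites by overlap and not of hairpins. The matching share over the 226 control hairpins is not given here, so no excess can be read from the 22 of 27. Mature RNAs of hairpins that lost their peak are shown in RefSeq's spelling, with the seed, bases 2 to 8, in capitals.
mmu-miR-9-5p: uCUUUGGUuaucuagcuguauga
mmu-miR-137-3p: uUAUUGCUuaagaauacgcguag
mmu-miR-153-3p: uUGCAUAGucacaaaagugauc
mmu-miR-10b-5p: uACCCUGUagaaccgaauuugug
mmu-miR-34b-5p: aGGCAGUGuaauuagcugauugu
mmu-miR-136-5p: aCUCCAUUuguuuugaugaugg
No 2 of these 6 share a seed. miR-9, miR-137 and miR-153 are microRNAs of the nervous system, miR-10b lies in a Hox cluster, miR-34b is a target of p53 and miR-136 lies in the imprinted Dlk1-Meg3 domain. CTCF overexpression alone kept the peak at Mir9-1, Mir137, Mir34b and Mir136 and lacked it at Mir153 and Mir10b. Mir434, Mir432, Mir3071 and Mir136 lie within 1 kb of each other and are 1 locus rather than 4. Mir3093 and Mir9-1, which both lost their peak, also lie within 1 kb of each other and are 1 locus. The gained hairpins were Mir7081, Mir6386, Mir7239, Mir744 and Mir6405.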

How the data were processed

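ATAC-seq peak lists of 15 groups were used. The submitters' processing notes name MACS2, Bowtie2, Picard, SAMtools, cutadapt, Trim Galore and FastQC, and mm10 or GRCm38 as build. Versions, thresholds, read shifts and the pooling of samples were not given in the sources used here. Deposited intervals are 400 bp wide, and their deposited score is 0 throughout, so peaks could not be ranked. Lists of the day 10 set share positions: 89.6% of the double treatment's intervals stand at an identical place in the control list. Every list column was mapped, and 0 were left out.

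Overlaps were computed in Python 3.11.15 with numpy 2.4.6, pandas 2.3.3 and scipy 1.17.1 and checked on simulated intervals. Gene positions come from RefSeq GRCm38.p6, matched by symbol. The gene table gives no strand, so either end of a gene was used. The bases of peaks were not used here. The planned base counts were made in the RefSeq promoters instead.

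Named genes were 10 fixed ones, members of the gene lists whose gene-end peak was in 1 list, the 8 greatest rises and falls in peaks within 10 kb, and the 5 fullest windows of lost and gained sites. One gene and its window under this rule are not reported here. Other genes and all families, promoters and microRNAs were named after their values were seen. The members and lists were chosen with earlier results of these data known.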

Additional observations from a re-analysis of the deposited data

How the results depend on the processing

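Across 60 results, 188 recomputed values were compared with the reported ones. Of these, 152 stayed within the reported 95% interval or, for counts, within 1.5 times, and 36 moved. Of the gene-list ratios, all within counting error of 0, the log2 ratio of the AP-1 list was 0.02 with a window of 20 kb in place of -0.03, and that of other remodellers -0.07 with 100 kb in place of 0.0049. These ratios and the numbers of lost and gained peaks stayed within these bounds under every alternative run. With sites found in at least 1 of the 12 lists outside day 10, added after the data were seen, 16.3% of control peaks were lost, 8.57% of double treatment peaks gained, and 62.1% of lost peaks were present with CTCF overexpression alone. In that set the day 0 list held 53.4% of lost, 49.0% of gained and 69.9% of shared sites, and the GFP+ list 77.7%, 35.0% and 75.0%. This puts lost above shared sites in GFP+ cells, the opposite of the reported order of 66.3% and 71.6%. Both lists are among those 12, so the filter removes only sites that both lack and can only raise their shares. The changed order is therefore no check of the reported one. With an overlap of 200 bp the day 0 list held 42.0%, 32.3% and 62.9%, and the GFP+ list 61.8%, 22.9% and 67.5%. With that overlap the double treatment held 8.38% of closing, 26.1% of opening and 61.9% of stable sites, against 8.08%, 33.1% and 69.1% in the control. With the CTCF shRNA lists as definers it held 8.68%, 27.6% and 60.4%, against 8.54%, 33.8% and 66.5%. Gene ends of 2.5 kb took 13.7% of lost, 11.0% of gained and 30.3% of shared sites. RefSeq starts gave 3.36% of genes losing their peak. In the central 200 bp, 71.6% of kept promoters passed the CpG ratio and 2.47% held a CTCF core.

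Of 18 named list genes, 9 no longer differed with gene ends of 2.5 kb, Nanog, Prdm14, Dppa5a, Gdf3, Crb3, Dsg3, Eng, Des and Myh3. With a window of 50 kb the share lost was 28.2% at olfactory receptors, 14.0% at Zfp genes and 13.4% at ribosomal protein genes. A stricter peak threshold could not be run because all scores are 0. No paired analysis was possible because each group has 1 list, and no replicate could be left out. Depth is unknown, so a lost peak can be a peak under the caller's threshold.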
